A study of Homo sapiens with 18 samples.

Results

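Microexons are exons so short that they add only a few amino acids to a protein, or only shift its reading frame. Those of 3 to 30 nucleotides (nt) were taken from the deposited intron usage table as cassette exons, where 1 cluster held the intron before the exon, the intron after it and the intron that skips it, and all 3 introns were annotated in GENCODE on hg38. By this rule 435 microexons in 406 genes were found among 20117 annotated cassette exons of any length. The skipping share of an exon was its skipping intron's value divided by that value plus the mean of the 2 flanking introns, so that 100% means that spanning reads always joined over the exon. It could be tested for 388 of the 435, since 12 held too little of their cluster, 7 were skipped less than 1% and 28 more than 99% of the time over all libraries.

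Splicing was profiled by RNA-seq in SHEP.tet21n, a human neuroblastoma line that carries a MYCN cDNA which doxycycline (Dox) represses. Cells received Dox at 2 µg/mL, renewed every 72 h (MYCN-), or the vehicle DMSO (MYCN+), and a control siRNA (SNRPD3+) or either of 2 siRNAs against SNRPD3, #1 and #2 (SNRPD3-). SNRPD3 is a protein of the Sm ring around the core of spliceosomal small nuclear RNAs. The 6 groups, of which MYCN-/SNRPD3+ is called the wildtype, had 3 replicate libraries each, 18 in all. MYCN status and Dox exposure cannot be told apart in this design. The PSI values in the table say how often each intron of a cluster was used relative to the others and give no expression, so neither the MYCN switch, nor the knockdown, nor markers of the line could be checked in these values, and the reads behind each PSI are unknown.

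A microexon leaves little room for the exonic sequences that help the spliceosome define an exon, and its recognition depends heavily on the flanking introns. In neurons, the SR-related protein SRRM4 promotes the inclusion of many microexons from a UGC motif in front of them, PTBP1 represses many through pyrimidine-rich sequence, and RBFOX proteins act from UGCAUG motifs behind the exon. Many neuronal microexons keep the reading frame and lie at the surface of proteins of the cytoskeleton, of vesicle traffic and of signalling.

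Among microexons within coding sequence, those whose skipping stood apart most clearly between MYCN+ and MYCN- are shown first as sequence. The exon of RPS24, which also stood apart, is not wholly coding and is not printed. Each line gives the 40 intron bases before the exon, the exon in capitals and the 12 bases after it, from hg38 on the strand of the gene, and all exons shown lie within coding sequence. The following were skipped more in MYCN+ with no overlap between the libraries of the 2 states.
AFDN (21 nt, chr6:167913403-167913423, plus strand): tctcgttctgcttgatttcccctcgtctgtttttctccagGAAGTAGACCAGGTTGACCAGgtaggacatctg
PSAP (9 nt, chr10:71823888-71823896, minus strand): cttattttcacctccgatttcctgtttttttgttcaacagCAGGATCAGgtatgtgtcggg
MAST2 (21 nt, chr1:46000959-46000979, plus strand): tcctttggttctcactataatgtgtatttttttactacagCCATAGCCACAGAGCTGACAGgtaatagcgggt
PICALM (24 nt, chr11:85978070-85978093, minus strand): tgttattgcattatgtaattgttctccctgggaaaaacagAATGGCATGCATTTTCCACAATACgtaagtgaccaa
KIF21A (21 nt, chr12:39330242-39330262, minus strand): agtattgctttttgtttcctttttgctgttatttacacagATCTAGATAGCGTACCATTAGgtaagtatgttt
SNX14 (27 nt, chr6:85538838-85538864, minus strand): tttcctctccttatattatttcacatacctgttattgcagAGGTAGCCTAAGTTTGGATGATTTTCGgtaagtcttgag
CSNK1G3 (24 nt, chr5:123605339-123605362, plus strand): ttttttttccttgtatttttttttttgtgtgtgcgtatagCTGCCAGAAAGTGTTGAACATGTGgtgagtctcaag
CLSTN1 (30 nt, chr1:9756481-9756510, minus strand): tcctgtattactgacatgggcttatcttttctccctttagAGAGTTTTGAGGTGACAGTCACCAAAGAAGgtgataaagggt

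Microexons skipped less in MYCN+ are shown next. They span the range from the 6 nt exon of APBB3 to the 29 nt exon of ACP1.
SGCE (27 nt, chr7:94599697-94599723, minus strand): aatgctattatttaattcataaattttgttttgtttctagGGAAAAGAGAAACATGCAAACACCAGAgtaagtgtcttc
APBB3 (6 nt, chr5:140561844-140561849, minus strand): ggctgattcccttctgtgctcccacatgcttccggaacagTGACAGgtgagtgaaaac
MTSS2 (9 nt, chr16:70679315-70679323, minus strand): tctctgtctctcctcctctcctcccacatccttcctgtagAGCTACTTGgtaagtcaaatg
ROBO1 (27 nt, chr3:78647629-78647655, minus strand): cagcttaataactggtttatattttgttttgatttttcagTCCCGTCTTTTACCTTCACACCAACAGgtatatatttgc
TRIM41 (23 nt, chr5:181233413-181233435, plus strand): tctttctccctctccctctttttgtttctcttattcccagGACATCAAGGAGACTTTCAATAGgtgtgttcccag
ACP1 (29 nt, chr2:272037-272065, plus strand): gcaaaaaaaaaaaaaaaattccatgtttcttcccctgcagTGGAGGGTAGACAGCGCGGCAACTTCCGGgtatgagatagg

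The MYH10 pair is shown because its exons end at the same base and differ by 3 bases at the acceptor, so that they are alternative forms of 1 exon, and DNM1 and TEAD1 because both exons have 12 nt, a length that keeps the frame. The exons of RTRAF and ASXL1 are, at 3 nt, as short as the rule allows.
MYH10 (30 nt, chr17:8576643-8576672, minus strand): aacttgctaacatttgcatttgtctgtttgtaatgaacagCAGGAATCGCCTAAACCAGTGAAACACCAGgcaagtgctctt
MYH10 (27 nt, chr17:8576643-8576669, minus strand): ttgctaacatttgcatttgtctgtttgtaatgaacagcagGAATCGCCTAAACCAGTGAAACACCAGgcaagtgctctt
DNM1 (12 nt, chr9:128239985-128239996, plus strand): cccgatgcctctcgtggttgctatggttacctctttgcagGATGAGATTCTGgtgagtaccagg
TEAD1 (12 nt, chr11:12878889-12878900, plus strand): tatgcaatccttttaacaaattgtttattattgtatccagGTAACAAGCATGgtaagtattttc
RTRAF (3 nt, chr14:52004240-52004242, plus strand): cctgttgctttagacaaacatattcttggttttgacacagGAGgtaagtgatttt
ASXL1 (3 nt, chr20:32367727-32367729, plus strand): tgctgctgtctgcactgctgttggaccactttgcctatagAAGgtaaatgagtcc

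Microexons had higher skipping shares, and lengths that kept the frame more often, than cassette exons of 31 to 300 nt. The median of the mean skipping share was 69.4% over all 435, against 28.1% over all cassette exons. By length it was 76.0% for 3 to 15 nt, 65.6% for 16 to 30 nt, 43.7% for 31 to 60 nt and 21.2% for 61 to 300 nt, and it was 60.2% again above 300 nt. Of the microexons, 148 (34.0%) were skipped in over 90% of spanning reads and 80 (18.4%) in under 10%. Near the upper length limit the fall was not smooth: the median was 37.1% for the 84 exons of 28 to 30 nt, just inside the rule, and 62.0% for the 118 exons of 31 to 33 nt, just outside it.

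**Figure D1:**
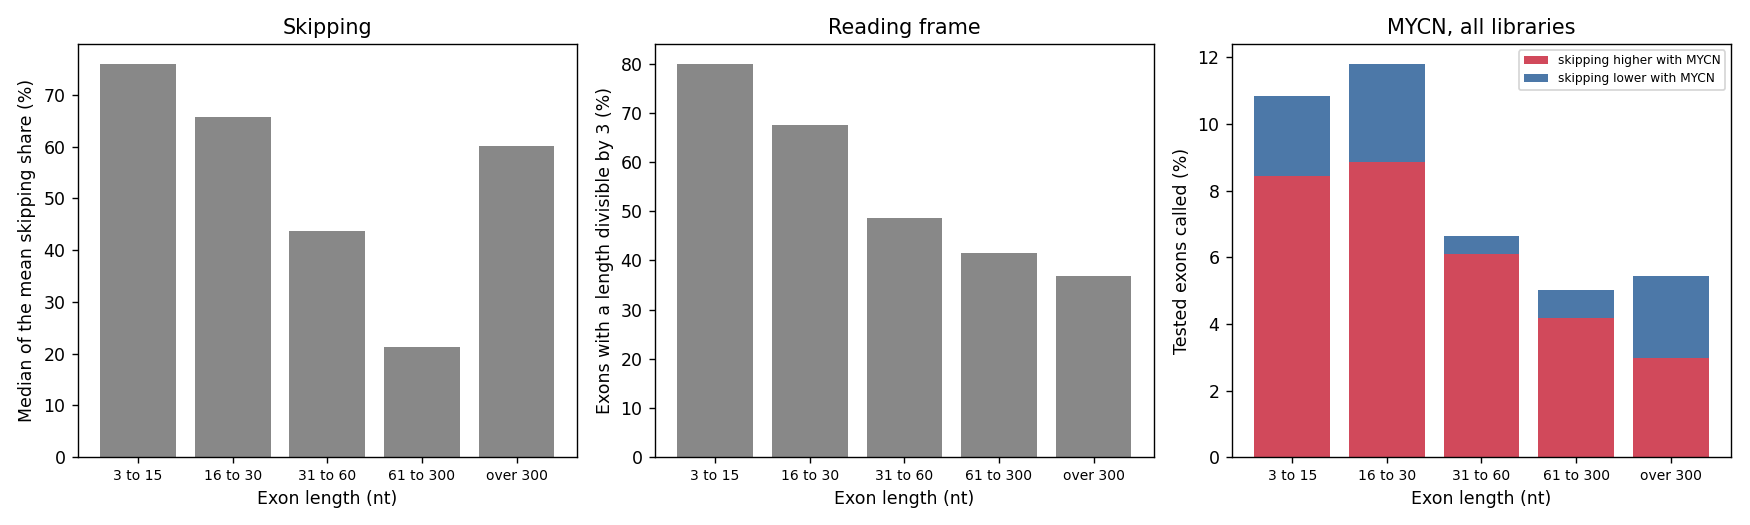
Bars give, for annotated cassette exons in 5 length classes (nt), the median over exons of the mean skipping share (%), the share of exons whose length is divisible by 3 (%), and the share of tested exons called for MYCN over all libraries (%), split by direction. Exons of 3 to 15 nt were skipped at a median of 76.0% and 80.0% of them kept the frame, and 11.8% of tested exons of 16 to 30 nt were called.

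A length divisible by 3, which leaves the reading frame intact, was held by 306 microexons (70.3%). The share was 80.0% for 3 to 15 nt and 67.5% for 16 to 30 nt, against 48.6% for 31 to 60 nt, 41.5% for 61 to 300 nt and 36.8% above 300 nt. The commonest lengths were 27 nt with 58 microexons, 24 nt with 53 and 30 nt with 52, and 10 microexons had 3 nt. Most microexons, 330 (75.9%), lay wholly within annotated coding sequence, and 10 were bounded by annotated introns without being an annotated exon themselves.

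Sequence around microexons was counted beside that of all cassette exons. The letters TGC occurred within the 50 bases before 61.1% of microexons, searched on the strand of the gene only, and before 54.6% of all cassette exons. TGCATG, the DNA spelling of the RBFOX motif, occurred within the 60 bases after 4.60% of microexons (20 of 435) and 2.34% of all cassette exons, and any TGCATG found before an exon would also count as a TGC. Pyrimidines made up a median of 72.7% of bases 25 to 4 before the exon, in microexons as in all cassette exons. Their introns were shorter, with medians of 1737 bases before and 1451 after the exon against 2300 and 2227. These are descriptions of letters in fixed windows.

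The extremes show the range. SH3GLB2 (endophilin B2, 15 nt), SLC8A1 (a sodium-calcium exchanger, 21 nt) and SMAGP (20 nt) had a mean skipping share of 99% each, the highest among tested members. DCAF11 (11 nt) and NUP214, a nuclear pore protein (25 nt), both at 1.06%, and MXD3, a MAX partner (30 nt), at 1.02%, had the lowest. Of the shortest, the 3 nt exon of CYTH2, which activates ARF GTPases, was skipped at 76.1% (65.5% to 83.4% over 18 libraries), that of ABCA2, a lipid transporter, at 68.2% (34.5% to 99.8%), and that of ASXL1, a chromatin regulator, at 11.5% (7.53% to 17.8%). The wide span of ABCA2 shows how little a single library fixes the share of some members.

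A list of 139 genes known for microexons in neurons and other cells held 55 members in 48 genes, 47 of them tested. Mean skipping was over 90% for 20 of the 47, between 10% and 90% for 23 and under 10% for 4, with a median of 82.3%. The 4 at the low end were the 18 nt exons of the cytoskeletal linker DST (3.38%) and of spectrin SPTAN1 (5.33%) and the 3 nt exons of the microtubule proteins CLASP2 (6.31%, with a median over libraries of 1.03% and 1 library at 97.0%) and CLASP1 (7.39%), which are given here after their values were seen. Members with the most of their cluster in the 3 introns were named by rule, a measure that favours skipped exons. They included TENM2 (94.2% mean skipping), SLC38A10 (95.5%), ERC1 (96.3%), PTK2 (96.4%), CLASP1 (27 nt, 96.9%), MEF2D (97.1%), SPTAN1 (15 nt, 97.3%), PTPRF (97.4%), AGRN (97.9%), MINK1 (98.0%) and MYO6 (98.2%). PTPRF is a receptor phosphatase whose 27 nt exon ranged only from 96.0% to 99.2% over the 18 libraries, and MEF2D is a transcription factor whose 21 nt exon ranged from 95.6% to 98.2%. None of the exons named by this rule was called in any of the 7 comparisons.

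The effect of MYCN was measured over all 18 libraries as the mean of the 3 MYCN+ groups minus that of the 3 MYCN- groups, so that each siRNA weighed the same. Skipping shares were compared on the scale log2((share + 0.01)/(1 - share + 0.01)), called log2 odds here, with limma, and p-values were adjusted over all 17515 cassette exons tested. At an adjusted p under 0.05, 45 of 388 microexons (11.6%) in 44 genes were called, 34 with more and 11 with less skipping in MYCN+. The background over all cassette exons was 5.38% called, 4.34% higher and 1.04% lower. An unadjusted p under 0.05 was reached by 113 microexons (29.1%), against 21.7% of all. The called share was 10.8% for 3 to 15 nt, 11.8% for 16 to 30 nt, 6.63% for 31 to 60 nt, 5.01% for 61 to 300 nt and 5.45% above 300 nt. It did not end at the length limit: 7 of 77 tested exons of 28 to 30 nt and 13 of 99 of 31 to 33 nt were called. The median signed difference was 0.55 percentage points for microexons and 0.51 for all cassette exons, with quartiles of -1.03 and 2.91 against -0.64 and 2.45.

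This count depended on the libraries and on the flanks used. It was 16 when MYCN states were compared over the control siRNA and #1 only and 15 over the control siRNA and #2 only, and 25 or 29 when only the intron before or only that after the exon stood for inclusion. It was 29 without replicate 1 or 3 of MYCN+/SNRPD3+, replicate 3 of MYCN+/SNRPD3- #1, replicate 1 of MYCN+/SNRPD3- #2 or replicate 1 of MYCN-/SNRPD3- #1, 27 without replicate 2 of the wildtype or of MYCN-/SNRPD3- #2, and 26 without replicate 3 of the wildtype or replicate 2 of MYCN-/SNRPD3- #1. Of the 45, 23 stayed called whichever library was left out, and 10 of these stayed called under every alternative that could test them: RPS24, AFDN, PSAP, MAST2, PICALM, SGCE, KIF21A, SNX14, CSNK1G3 and MACF1. The same counts over all cassette exons are not given here. It therefore stays unknown whether calls of microexons were more or less stable than those of other exons.

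The lists by gene role below only order the account, and none was tested against the rest. Over all tested microexons 8.76% were called higher and 2.84% lower, and over all cassette exons 4.34% and 1.04%. Cytoskeleton and adhesion genes gave 6 of 42 tested microexons with more skipping in MYCN+ and 1 with less. Afadin (AFDN), which ties adherens junctions to actin, has a 21 nt exon whose skipping ran from 38.5% through a median of 47.6% to 55.4% over the 9 MYCN- libraries, and from 59.5% through 69.3% to 79.6% over the 9 MYCN+ libraries. The 2 sets of libraries did not overlap, and the difference was 22.2 percentage points or 1.33 ± 0.14 log2 odds (SE, adjusted p = 0.000461). KIF21A, a kinesin, skipped its 21 nt exon at 31.8% to 54.9% (median 49.8%) in MYCN- and 60.5% to 74.9% (median 66.1%) in MYCN+, again without overlap (1.12 ± 0.13 log2 odds, adjusted p = 0.000927). ABI1, a member of the WAVE complex that builds branched actin, skipped its 15 nt exon almost always, at 95.3% in MYCN- and 98.4% in MYCN+ (adjusted p = 0.00215). The 18 nt exon of MACF1, a linker of actin and microtubules, rose from 76.5% to 84.4% (adjusted p = 0.00506).

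MYH10, the heavy chain of non-muscle myosin IIB, had both forms of its alternative exon called. The 30 nt form rose from 92.6% to 95.1% (0.56 ± 0.13 log2 odds, adjusted p = 0.0259) and the 27 nt form from 95.9% to 97.2% (0.46 ± 0.12, adjusted p = 0.0408). Both compare against the same skipping intron, so they are not independent members, and of the pair the 27 nt form kept its call in only 3 of 18 fits without a library. ROBO1, the receptor for Slit guidance cues, went the other way: its 27 nt exon was skipped at 47.2% to 61.3% (median 56.0%) in MYCN- and at 33.2% to 59.2% (median 43.9%) in MYCN+. Those ranges overlapped through MYCN+/SNRPD3- #2, whose libraries lay at 55.0%, 44.7% and 59.2%, and the difference was -0.65 ± 0.16 log2 odds (adjusted p = 0.0313), called in 11 of 18 fits without a library.

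Membrane traffic and transport genes gave 5 of 48 tested microexons with more skipping and 1 with less. PICALM, which recruits clathrin to membranes, had its 24 nt exon included in most spanning reads of every library. Its skipping was 12.9% to 23.3% (median 18.7%) in MYCN- and 26.4% to 44.4% (median 31.9%) in MYCN+, without overlap (1.03 ± 0.12 log2 odds, adjusted p = 0.000815). The sorting nexin SNX14 had a larger difference in share, 23.3 points, as its 27 nt exon moved from 29.9% to 51.7% (median 43.0%) up to 53.8% to 77.1% (median 64.0%), at 1.38 ± 0.19 log2 odds (adjusted p = 0.00189). DNM1, the dynamin that cuts vesicles from the membrane, skipped its 12 nt exon at 50.4% in MYCN- and 64.0% in MYCN+ (adjusted p = 0.00794), with ranges that just met at 59.5% and 59.1%. The remaining calls were small or at the ends of the scale: SLC22A23 (24 nt) rose from 94.9% to 99.5%, TMEM184B (21 nt) from 95.1% to 98.0%, and SLC11A2, an iron transporter (25 nt), fell from 96.4% to 93.9%. TMEM184B kept its call in 2 and SLC11A2 in 3 of 18 fits without a library, and SLC22A23 in all 18. Of the other alternatives that could test SLC22A23, 7 of 10 kept its call.

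**Figure D2:**
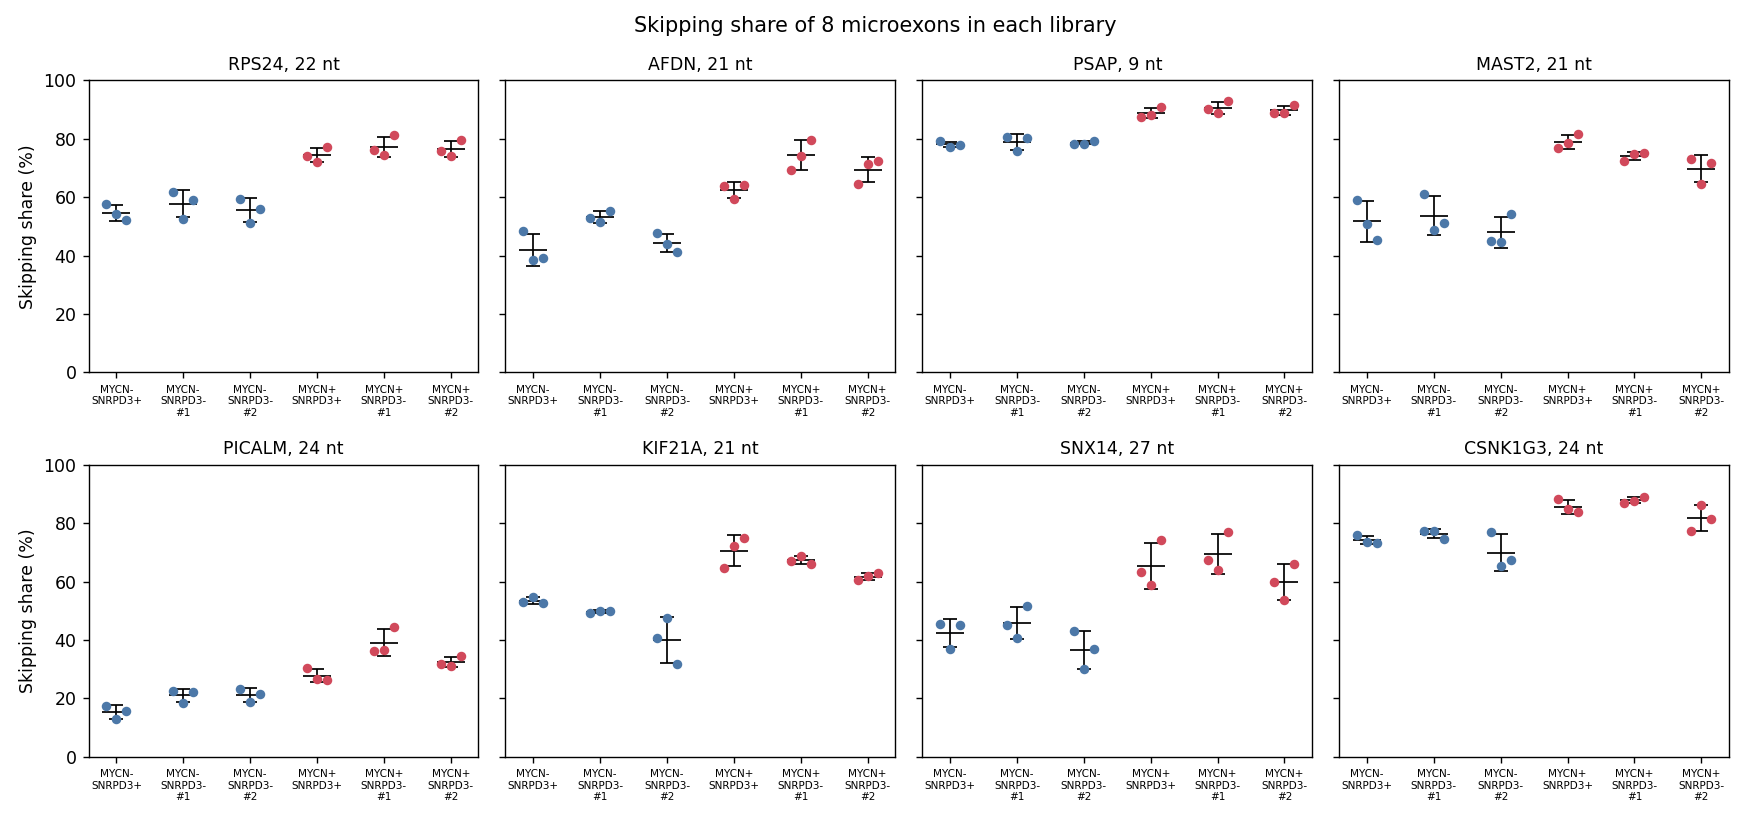
Each point is 1 library's skipping share (%) of the named microexon in 1 of the 6 groups, MYCN- in blue and MYCN+ in red, and bars give the mean and SD of 3 replicates. In all 8 microexons the 9 MYCN+ libraries lie above the 9 MYCN- libraries, as in RPS24 with 72.2% to 81.2% against 51.3% to 61.8%.

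Kinase, phosphatase and GTPase genes gave 2 of 40 tested microexons with more and 2 with less skipping. CSNK1G3, a casein kinase, skipped its 24 nt exon at 65.3% to 77.3% (median 74.7%) in MYCN- and at 77.4% to 89.0% (median 86.2%) in MYCN+. The ranges came close to each other without overlap, and the difference was 1.01 ± 0.15 log2 odds (adjusted p = 0.00251). ARHGEF10L, a guanine nucleotide exchange factor, rose from 80.5% to 88.7% for a 15 nt exon, with overlapping ranges and an adjusted p of 0.0420, and kept its call in 2 of 18 fits without a library. The microexons of MAP3K6 (24 nt) and of INPP5K, an inositol phosphatase (17 nt), were skipped less in MYCN+. INPP5K fell from 94.0% to 80.4% (-1.85 ± 0.27 log2 odds, adjusted p = 0.00258), and MAP3K6 from 19.2% to 6.91% with MYCN+ libraries as low as 0.181% (adjusted p = 0.0480), a call kept in 3 of 18 such fits.

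Chromatin and transcription genes, by their symbols, gave 2 of 32 higher and 1 lower. TEAD1, the DNA-binding partner of the Hippo pathway's YAP, skipped its 12 nt exon at 44.6% to 61.9% (median 49.9%) in MYCN- and at 56.2% to 73.8% (median 66.4%) in MYCN+, with 0.87 ± 0.17 log2 odds (adjusted p = 0.0112). ZNF827, a zinc finger protein (28 nt), rose from 50.7% to 64.2% and kept its call in 2 of 18 fits without a library. TRIM41, a ubiquitin ligase that the symbol rule placed here, skipped its 23 nt exon less in MYCN+. Its wildtype libraries were at 15.9%, 15.3% and 16.5%, while MYCN-/SNRPD3- #1 was at 6.0%, 6.2% and 3.0% and MYCN-/SNRPD3- #2 at 5.8%, 19.3% and 9.1%. All 9 MYCN+ libraries were between 1.91% and 6.28%, and the difference was -1.34 ± 0.24 log2 odds (adjusted p = 0.00784).

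Genes of RNA and translation gave 2 of 10 higher and 0 lower, by the same limma test, and the ribosomal protein RPS24 had the smallest p of all microexons. Its 22 nt exon at chr10:78040204-78040225 is not wholly coding. Skipping ran from 51.3% through 55.9% to 61.8% in the 9 MYCN- libraries and from 72.2% through 75.9% to 81.2% in the 9 MYCN+ libraries. The groups did not overlap, and the difference was 1.29 ± 0.13 log2 odds (adjusted p = 0.000455). The nucleoporin NUP58 (25 nt) rose from 1.82% to 3.53% (adjusted p = 0.0379) and kept its call in 5 of 18 fits without a library.

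In no role list stood 216 tested microexons, of which 17 rose and 6 fell. PSAP, the precursor of the lysosomal saposins, skipped its 9 nt exon within narrow ranges, 75.7% to 80.6% (median 78.4%) in MYCN- and 87.5% to 92.9% (median 88.9%) in MYCN+. That difference of 11.2 points, or 1.20 ± 0.13 log2 odds, had an adjusted p of 0.000461. MAST2, a microtubule-associated kinase that the symbol rule missed, went from 44.8% to 61.2% (median 50.8%) to 64.6% to 81.7% (median 74.7%) for a 21 nt exon, at 1.45 ± 0.15 log2 odds (adjusted p = 0.0005). CLSTN1, a synaptic cadherin-like protein (30 nt), moved from 58.7% to 64.2% (median 60.7%) up to 65.0% to 77.6% (median 74.0%) without overlap (adjusted p = 0.00595).

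Others of this group spanned the whole scale. MON2, which acts in traffic from endosomes to the Golgi, rose from 34.1% to 51.6% (18 nt), GK, glycerol kinase, from 41.7% to 58.3% (18 nt), NRG1, a ligand of ERBB receptors, from 65.1% to 81.1% (24 nt) and MDM1, a centriole protein, from 57.0% to 70.7% (30 nt). NRG1's 3 introns held only 8.55% of their cluster, the least among these. The exons of ACOT9 (27 nt), GRIPAP1 (27 nt), MTCH2 (27 nt) and the noncoding RNAs CRNDE (30 nt) and GAS5 (23 nt) were mostly included, with MYCN- means of 13.2%, 9.02%, 7.06%, 2.81% and 3.98% and MYCN+ means of 19.7%, 14.2%, 10.1%, 7.88% and 5.93%. SELENOW (25 nt) and GRAMD1A (21 nt) went from 0.826% to 2.06% and from 1.08% to 2.44%, and DCTD (8 nt), TOM1L1 (8 nt) and FAM168A (27 nt) from 88.5% to 93.2%, from 94.9% to 97.6% and from 93.5% to 97.4%. FAM168A turned to -0.0875 log2 odds when the skipping intron alone was measured, so its direction rests on the flanking introns. Without 1 library, the calls of MTCH2 (2 of 18 fits), ACOT9 (3), MON2, GRIPAP1 and CRNDE (5 each), GAS5 (6) and TOM1L1 (7) were mostly lost, those of NRG1 and GRAMD1A held in 11 and 12, and those of GK, MDM1, DCTD, SELENOW and FAM168A in all 18.

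Less skipping in MYCN+ was called for 11 microexons in all. SGCE, the epsilon-sarcoglycan of the cell membrane, included its 27 nt exon nearly always, and skipping was 5.59% to 8.36% (median 6.78%) in MYCN- and 1.15% to 4.73% (median 3.25%) in MYCN+. The libraries did not overlap, at -1.09 ± 0.13 log2 odds (adjusted p = 0.000815). ACP1, a phosphotyrosine phosphatase, also had no overlap, with 21.2% to 24.7% (median 23.5%) against 15.6% to 19.2% (median 18.4%) for its 29 nt exon (-0.45 ± 0.10 log2 odds, adjusted p = 0.0177). With only the intron after the exon as the flank, ACP1 turned to 0.21 log2 odds.

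The largest difference in share among the 45 was that of APBB3, a binding partner of the amyloid precursor protein. Its 6 nt exon fell from 71.6% to 45.2%, a change of -26.4 points (-1.68 ± 0.41 log2 odds, adjusted p = 0.0322), with libraries from 54.9% to 88.3% in MYCN- and from 27.1% to 66.4% in MYCN+ that overlapped. MTSS2, which bends membranes at actin (9 nt), fell from 75.9% to 65.7%, the copper protein CUTC (28 nt) from 37.8% to 30.3%, and GPBP1, a transcription factor (21 nt), from 89.8% to 86.2%. These 4 kept their calls in 8, 4, 4 and 1 of 18 fits without a library.

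**Figure D3:**
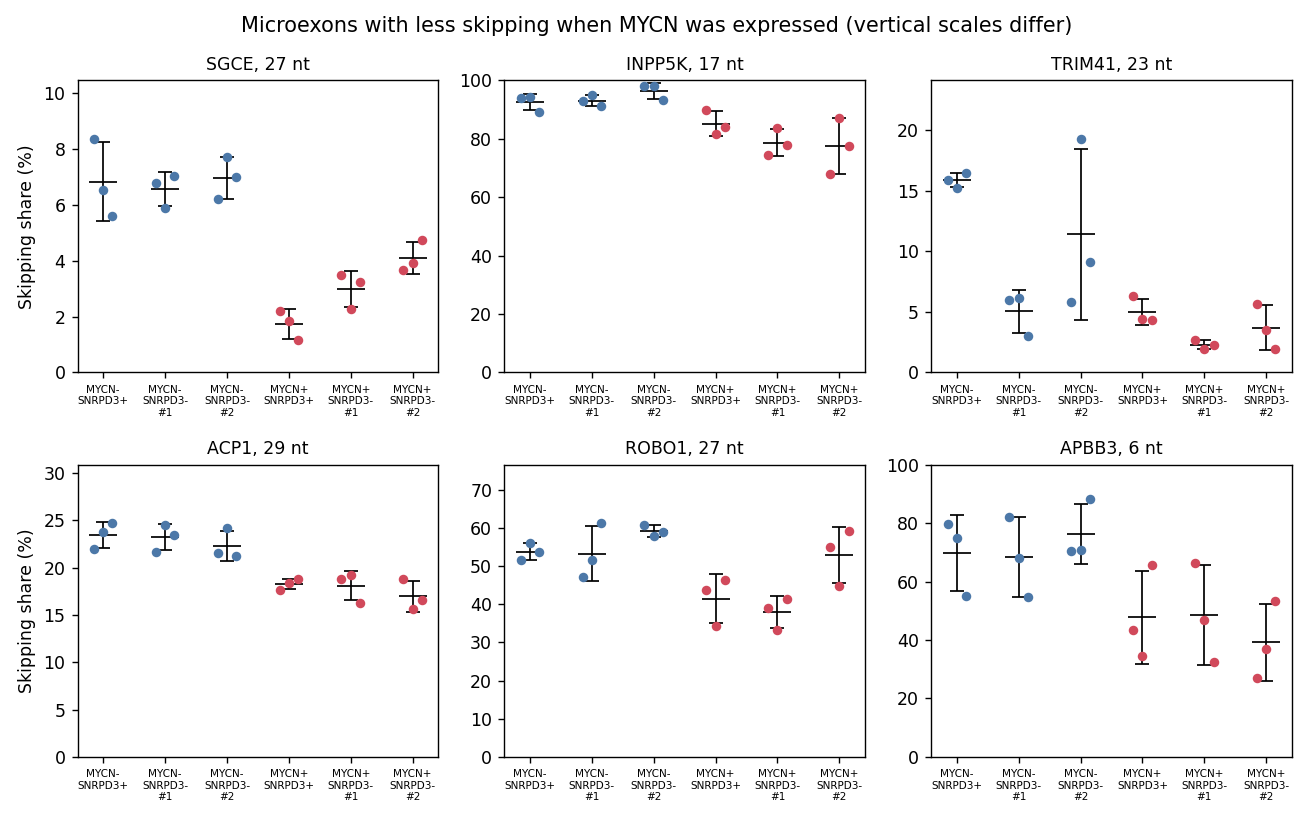
Points give the skipping share (%) in each library for the 6 microexons with the smallest p among those skipped less in MYCN+, with the mean and SD of 3 replicates per group; vertical scales differ and start at 0. SGCE lies at 5.59% to 8.36% in MYCN- and 1.15% to 4.73% in MYCN+, while in TRIM41 the wildtype lies above all other libraries but 1 of MYCN-/SNRPD3- #2.

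Complete separation of the 9 MYCN+ from the 9 MYCN- libraries was seen in 11 microexons (2.84%), against 0.742% of all cassette exons. Within each siRNA, the MYCN difference of the 45 had the sign of the pooled difference in 3 of 3 cases for all 45, but the pooled value is made of these 3. The libraries of the 2 states were separate within each of the 3 siRNA treatments for 20 of the 45, within 2 of them for 18 and within 1 for 7. Those 20 were 5.15% of the tested microexons, against 2.41% of all cassette exons, and they were picked from exons called on the same libraries, so nothing more is read from the count. SNX14 changed by nearly the same amount each time, while MAST2 ranged from 20.4 points with #1 to 27.3 points with the control siRNA.

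**Figure D4:**
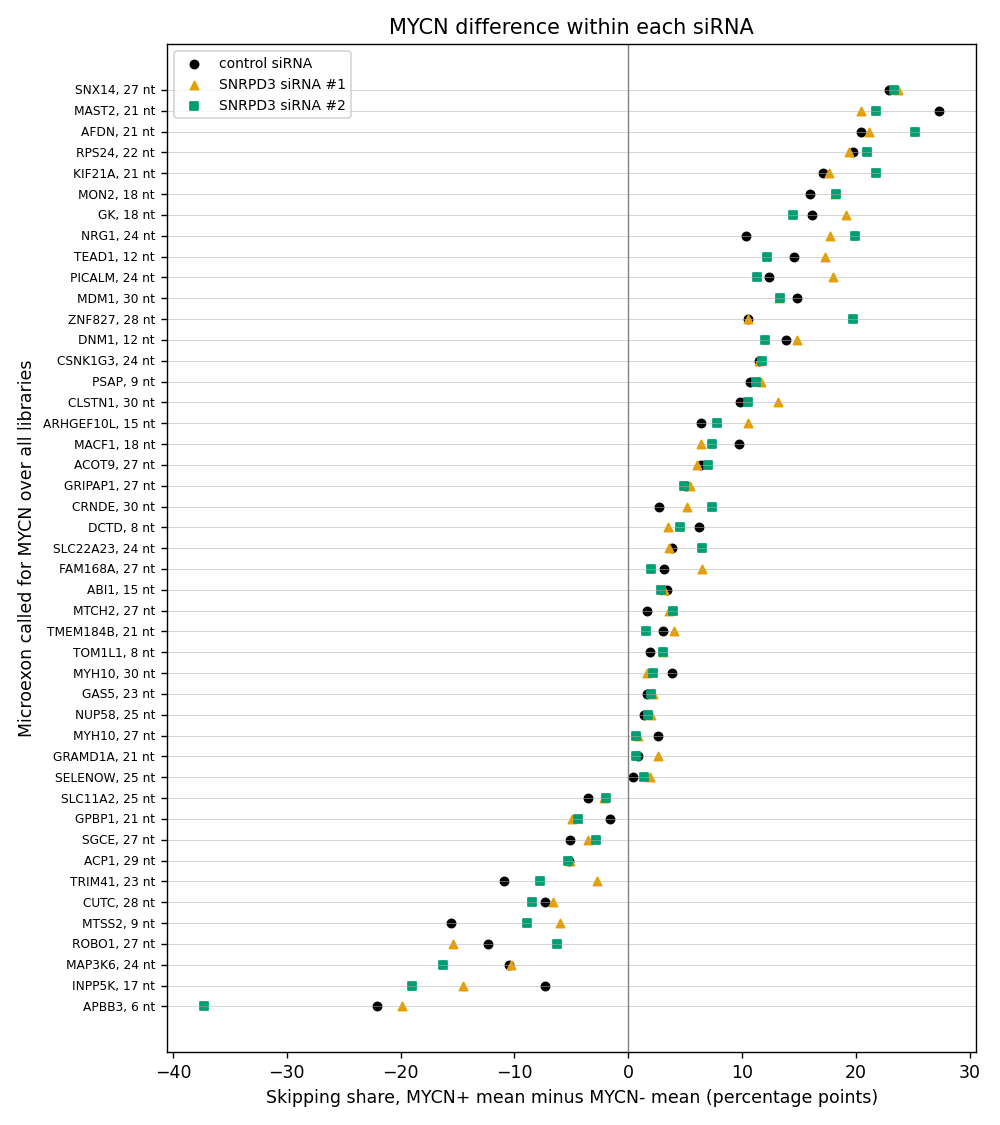
For each of the 45 microexons called for MYCN, symbols give the mean skipping share of 3 MYCN+ minus 3 MYCN- libraries (percentage points) under the control siRNA, SNRPD3 siRNA #1 and #2. All symbols of a microexon lie on the same side of 0, from -37.3 points for APBB3 with #2 to 27.3 points for MAST2 with the control siRNA.

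Features that the test did not use were set side by side for called and other microexons, without a test. Of the called, 33 of 45 (73.3%) had a length divisible by 3, against 71.4% of the 343 tested and not called. TGC stood before 27 of the 45 and before 61.5% of the others, and TGCATG after 4 (8.89%) and 14 (4.08%). The intron after the exon had a median of 1088 bases for the called and 1830 for the others, and that before it 1870 and 1818. Of genes known for microexons, 5 of 47 tested members rose (PICALM, KIF21A, ABI1, DNM1 and MACF1) and 1 fell (ROBO1). Of all tested microexons, 8.76% rose and 2.84% fell by the same call, and over all cassette exons 4.34% and 1.04%. In a second list, of 34 genes whose proteins act on microexons, 64 cassette exons of any length in 26 genes were tested. Only the 312 nt exon of TRA2A, a splicing activator, was called for MYCN, with 92.9% skipping in MYCN- and 95.0% in MYCN+ (adjusted p = 0.0472). Over all cassette exons 5.38% were called. An unadjusted limma p under 0.05 was reached by 16 of the 64, against 21.7% of all cassette exons.

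MYCN alone, MYCN+/SNRPD3+ against the wildtype, asks the same question with 3 libraries a side and shares these libraries with the comparison above. The same fit called 2 of 388 microexons, against 0.0285% of all cassette exons. MAST2 was skipped at 59.2%, 50.8% and 45.3% in the wildtype and at 77.0%, 78.6% and 81.7% in MYCN+/SNRPD3+ (1.77 ± 0.27 log2 odds, adjusted p = 0.0420). SGCE was skipped at 8.4%, 6.5% and 5.6% in the wildtype and at 2.2%, 1.9% and 1.2% in MYCN+/SNRPD3+ (-1.60 ± 0.22 log2 odds, adjusted p = 0.0286). The groups of both did not overlap, but 0 microexons were called when any MYCN+/SNRPD3+ library, or wildtype replicate 2 or 3, was left out of the limma fit (42 to 51 with an unadjusted p under 0.05), and 1 or 2 without any other. In the full fit 51 microexons (13.1%) had an unadjusted p under 0.05, against 8.66% of all.

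MYCN and the knockdown together, both MYCN+/SNRPD3- groups against the wildtype, called 32 microexons (8.25%), where the background was 5.85%. More skipping was called for 28, against 5.45% of all, and less for 4, against 0.405%. Of the 32, 25 were also called for MYCN over all libraries, which shares its libraries, and 52 were called in at least 1 comparison. AFDN had the largest change in percentage points, from 48.4%, 38.5% and 39.3% in the wildtype to 69.3%, 74.2% and 79.6% with #1 and 64.7%, 71.4% and 72.4% with #2, a difference of 29.9 points (1.80 ± 0.21 log2 odds, adjusted p = 0.00249). PICALM rose from 15.4% to 35.8% (1.56 ± 0.18 log2 odds, adjusted p = 0.00249), and ARHGEF10L from 74.5% to 92.7% (1.95 ± 0.39, adjusted p = 0.0168). TRIM41 fell from 15.9% to 2.99% (-2.35 ± 0.36, adjusted p = 0.00588).

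The 7 called in this comparison and not for MYCN over all libraries were all skipped more than in the wildtype. The 3 nt exon of RTRAF, a component of the tRNA ligase complex, was skipped at 1.46%, 1.82% and 1.27% in the wildtype, at 3.39%, 3.45% and 5.94% with #1 and at 4.34%, 3.32% and 4.40% with #2 (adjusted p = 0.0120). ASXL1 (3 nt) rose from 8.35% to 14.5%, ARRB1, a beta-arrestin (24 nt), from 70.8% to 83.3%, EPGN, a ligand of the EGF receptor (27 nt), from 26.6% to 44.9%, CFI, complement factor I (21 nt), from 6.47% to 12.7%, DST, a linker of the cytoskeleton (18 nt), from 2.01% to 4.91% and GPATCH8 (18 nt) from 85.2% to 94.6%. The libraries of EPGN overlapped, since replicate 2 with #2 lay below wildtype replicate 2 at 28.5%. Separation of libraries is not counted for the others. All 7 were called on these same libraries, and the share of all cassette exons without overlap is not given for this comparison. EPGN, DST and ASXL1 kept these calls in 3, 4 and 8 of 18 fits without a library.

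Wildtype libraries carried much of this count, and the counts below have no share over all cassette exons beside them. It was 12, 9 and 5 without wildtype replicate 1, 2 and 3, and 19 without replicate 3 of either MYCN+/SNRPD3- group. With the groups compared fitted on their own it was 2, with siRNA #2 only 10, and with the intron before the exon as the only flank 19. AFDN, PICALM, RPS24, PSAP and TRIM41 stayed called whichever library was left out.

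SNRPD3 knockdown on its own gave no call at a microexon in the limma fit of all 6 groups without a block. Over all libraries, the mean of the 4 SNRPD3- groups minus that of the 2 SNRPD3+ groups called 0 of 388 microexons by limma, against 0.0285% of all cassette exons, and 51 (13.1%) had an unadjusted p under 0.05, against 15.4%. With MYCN repressed it called 0 microexons, where the background was 0 as well, and 20 had an unadjusted p under 0.05 (5.15%, against 6.54%). With MYCN expressed it called 0, against a background of 0.0285%, and 40 passed unadjusted (10.3%, against 13.2%). The interaction, the knockdown effect in MYCN+ minus that in MYCN-, called 0 against a background of 0, with 13 unadjusted (3.35%, against 4.16%). A miss of the threshold does not show that these exons were unaffected.

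**Figure D5:**
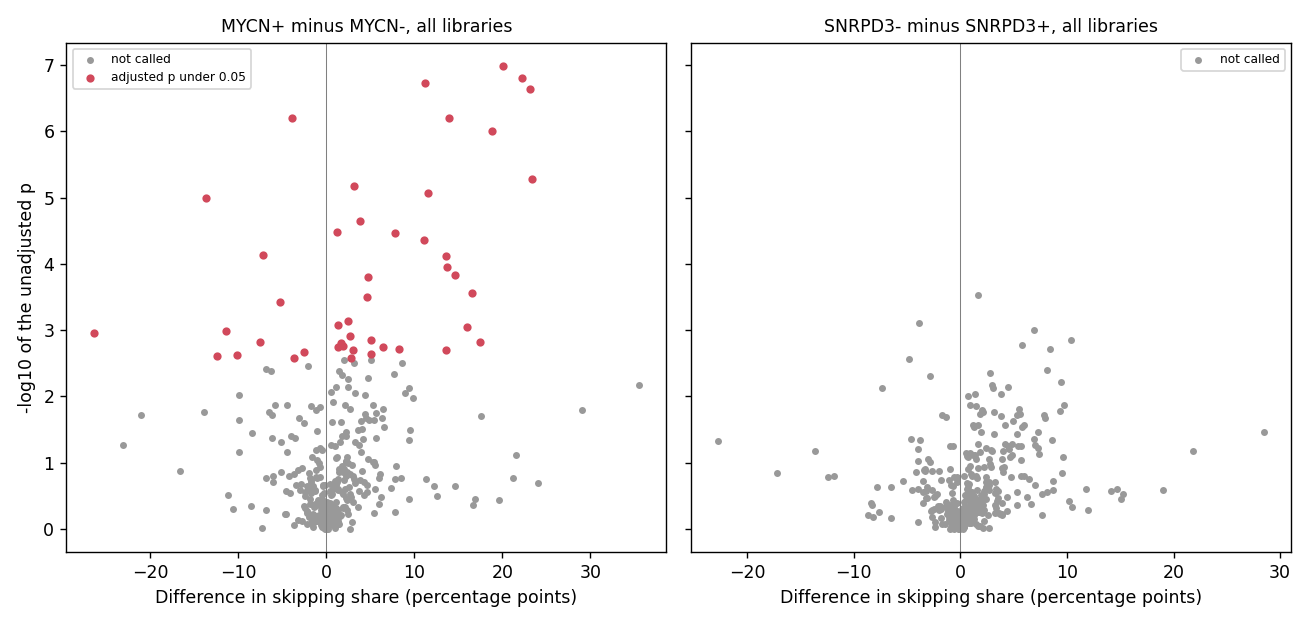
Each point is 1 of 388 tested microexons, with the difference in mean skipping share (percentage points) across and -log10 of the unadjusted limma p upwards, for MYCN+ minus MYCN- and for SNRPD3- minus SNRPD3+ over all 18 libraries. Red points, 45 on the left and 0 on the right, had an adjusted p under 0.05.

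PICALM came nearest among microexons that differed by at least 5 points with the knockdown. With MYCN repressed, skipping was 17.6%, 12.9% and 15.8% with the control siRNA, 22.6%, 18.5% and 22.2% with #1 and 23.3%, 18.7% and 21.7% with #2. With MYCN expressed it was 30.5%, 26.5% and 26.4%, then 36.3%, 36.6% and 44.4%, and 31.9%, 31.2% and 34.4%. In both states every knockdown library was above every control library, and the difference over all libraries was 0.53 ± 0.13 log2 odds (adjusted p = 0.0986).

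Of the 7 others named by that rule, 6 had higher and 1 had lower values with the knockdown, and none passed in the main fit. ARHGEF10L differed by 1.10 ± 0.28 log2 odds (77.7% to 88.1%, adjusted p = 0.105), TENM3, a teneurin of neuronal adhesion (21 nt), by 0.65 ± 0.17 (adjusted p = 0.108) and ARRB1 by 0.66 ± 0.17 (adjusted p = 0.116). AFDN, RFFL, a ubiquitin ligase (24 nt), and EPGN had adjusted p of 0.145, 0.165 and 0.210. KIF21A was lower with the knockdown, at 62.0% with the control siRNA and 54.7% with the SNRPD3 siRNAs (-0.45 ± 0.14 log2 odds, adjusted p = 0.172), while it was higher with MYCN.

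Averaged over the 388 tested microexons, each library sat close to the others. The mean skipping share was 55.0% ± 0.61 (SD, n = 3) in the wildtype, 56.1% ± 0.60 in MYCN-/SNRPD3- #1, 55.9% ± 0.64 in MYCN-/SNRPD3- #2 and 56.2% ± 0.62 in MYCN+/SNRPD3+. It was 57.6% ± 1.9 in MYCN+/SNRPD3- #1 and 57.5% ± 1.3 in MYCN+/SNRPD3- #2, whose replicates were the least alike. MYCN+ was 1.42 points above MYCN- and SNRPD3- was 1.16 points above SNRPD3+, with an SD of 1.07 points between replicates. With the median over exons in place of the mean, these differences were 4.01 and 2.89 points. By the mean again, the differences were 0.953 and 1.46 points over all tested cassette exons, 1.3 and 1.9 for 31 to 60 nt, 1.01 and 1.48 for 61 to 300 nt, and 0.206 and 1.03 above 300 nt. The median differences above are not on the same measure. From the lowest library, wildtype replicate 3, to the highest, MYCN+/SNRPD3- #1 replicate 3, the median went from 60.3% to 73.0% in microexons. Over all tested cassette exons it went from 24.7% to 34.6% between the same libraries. These means and medians describe the set and were not tested.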

How the data were processed

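The authors aligned RNA-seq reads to hg38 with STAR 2.5.0a under ENCODE settings with adjustments of their own, used SAMtools 1.3.1, and clustered introns with leafcutter. The deposited PSI values are fractions of a cluster's spanning reads, given for 233650 introns in 51819 clusters and for each of 18 libraries. They sum to 1 in a cluster and never reach 0 or 1, so they were smoothed before deposit, and 24 microexons had the same share in more than 1 library. The authors' comparisons (FDR and delta PSI) were not used, and 0 columns of values were left unmatched. Reads per intron are unknown, so replicate spread is the only error. A read through a microexon must be split at nearby junctions, and what those adjustments were, and how leafcutter was set for such reads, is not given in the sources used here.

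Of the introns, 127076 matched GENCODE release 44, while the authors named an earlier release. Stretches that held an annotated intron were left out. Each exon was represented by the trio of introns with the highest mean support, the skipping PSI plus the mean flanking PSI. Exons with a mean support of at least 0.05 and a mean share from 0.01 to 0.99 were fitted with limma 3.58.1 in R 4.3.3 (lmFit, contrasts.fit, eBayes, prior 1.77 and residual 12 degrees of freedom), all 6 groups in 1 fit without a block, with Benjamini-Hochberg adjustment within each comparison over 17515 exons. The fit was tested on simulated data, with residuals shuffled between libraries and 200 exons shifted in the SNRPD3- groups. At shifts of 1, 2 and 4 log2 odds, knockdown over all libraries called 91, 155 and 187 of the 200. The study describes its 3 replicates as independent biological ones, and p-values measure the spread between these libraries. Tables used Python 3.11.15, numpy 2.4.6 and pandas 2.3.3, and plots matplotlib 3.10.9.

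Members, gene lists and role patterns (matched on gene symbols) were chosen with earlier results of these data known. Named were all called microexons, the 8 with the smallest p and a difference of at least 5 points for knockdown, MYCN (both over all libraries) and together, the 12 best supported in genes known for microexons (1 is not reported here), the 3 shortest, and the 3 most and least skipped. Alternatives were offsets of 0.001 and 0.05, no support filter, shares from 0.05 to 0.95, a replicate block, a fit of only the groups compared, all trios, each siRNA alone, only exons with 18 different values, the skipping intron alone and leaving out each library. Either flanking intron alone was added after seeing the data. No sequence was printed for members outside coding sequence or for the 15 on chromosome 8.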

Additional observations from a re-analysis of the deposited data

How the results depend on the processing

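Counts of called microexons changed with several choices. The share of all cassette exons called under each choice is not given here, so these counts do not compare microexons with the rest. For MYCN over all libraries (45), siRNA #1 only gave 16, siRNA #2 only 15, the intron before the exon as the only flank 25 and the intron after it 29, and leaving out a library gave 26 to 38. For MYCN and knockdown together (32), only the groups compared gave 2, siRNA #2 only 10 and the intron before as the only flank 19, with 5 to 36 without a library. For MYCN alone (2), only the groups compared gave 0, a share from 0.05 to 0.95 gave 1, the intron after as the only flank 1, and leaving out a library 0 to 2. The knockdown within either MYCN state, the knockdown over all libraries and the interaction gave 0 without any library. Contrasts over all libraries use every group, so a fit of only the groups compared is the main fit there. The offsets, no support filter, all trios and the restriction to different values kept every count within 1.5 times.

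With the replicate number as a block, 45 microexons were called for both together, 53 for MYCN over all libraries, 0 for MYCN alone and 1 for knockdown over all libraries, RFFL (24 nt, 0.82 ± 0.16 log2 odds, limma adjusted p = 0.0474). Libraries with the same number had a mean correlation of residuals of 0.0137 (45 pairs, -0.0765 to 0.0981) and others of -0.00684 (90 pairs), and 13 of 18 correlated best with their own number. No pair exceeded 0.1, and the main fit was kept without a block. Pairs with the same number were fewer than the others, 45 against 90, so 13 of 18 does not exclude a weak pairing. The call for the knockdown depends on this choice.

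The MYCN difference of library means was 1.12 to 1.76 points and the knockdown difference 0.937 to 1.41 points without a library, and with the median over exons they were 4.01 and 2.89 points. Alternatives were run on 74 named microexons, of which 52 were called in at least 1 comparison. For the rest an unchanged result means that they stayed uncalled, so the first count below overstates how stable the calls were. Of these alternatives, 1782 kept direction and stayed called or uncalled, 417 lost the call, 1 gained it and 14 turned direction. The last were ABCA2 (0.50 log2 odds) and ACP1 (0.21) with the intron after as the only flank, FAM168A (-0.0875) and SH3GLB2 (0.12) with the skipping intron alone, MINK1 (0.0313) without MYCN+/SNRPD3+ replicate 1 (-0.82 to 0.0313 over all libraries left out), MXD3 (0.17) with siRNA #1, MYO6 (0.29) with siRNA #2, and SMAGP with offset 0.001 (0.12), siRNA #1 (0.27), the intron after (0.018), and without wildtype replicate 2 (0.29), MYCN+/SNRPD3- #1 replicate 1 (0.15) or #2 replicate 1 (0.08) or 3 (0.0377), and -0.41 to 0.29 over all libraries left out. Of these, only ACP1 and FAM168A were called. The cause was not tested.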
